A study of Mus musculus with 54 samples.

Results

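The genes described here are 8 members and near partners of the circadian clock, measured in the mouse mammary gland from puberty to the end of involution: Clock, Per1, Per2, Cry1, Bhlhe40, Nfil3, Dbp and Tef. Every probe set of the array annotated to exactly 1 of these symbols was taken, which gave 11 probe sets of 12488 for the 8 genes (8251 symbols in all have a probe set annotated to them alone). The series holds 54 Affymetrix arrays, with 3 mice at each of 18 time points, and each array carries RNA from 1 inguinal (4th) gland of 1 mouse, with its lymph node taken out beforehand. Virgin mice were taken at 6, 10 and 12 weeks of age. Pregnant mice, mated when 12 weeks old, were taken on days 1, 2, 3, 8.5, 12.5, 14.5 and 17.5, with plug day as day 0.5. Lactating mice were taken on days 1, 3 and 7. Involution, sampled on days 1, 2, 3, 4 and 20, was set off by weaning, with the litter taken away on day 7 of lactation. No strain, genotype or drug is named in the labels, and the sources used here do not give the hour of day at which glands were taken. The hour therefore cannot be told apart from the time point in any difference below.

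The clock of a mammalian cell is a loop in which the proteins CLOCK and BMAL1 (gene Arntl) together switch on genes with E-boxes, short DNA elements, in their control regions. Among those genes are the Period and Cryptochrome genes, whose products return to the nucleus and block CLOCK and BMAL1, so that RNA levels rise and fall about once a day. BHLHE40 is a further repressor that binds E-boxes. DBP and TEF are PAR bZIP factors driven by the loop that activate genes through D-boxes, and NFIL3 represses through the same D-boxes. Most organs run this loop, and the mammary gland is among them.

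The promoter windows show which of these elements stand next to the start sites of Dbp and Tef, which had the widest ranges, of Cry1, which was called in 6 of the 8 comparisons, and of Per1, which has both kinds of element. In the RefSeq promoter table (GRCm38.p6, 250 bases before to 50 bases after a start site) 6 of the 8 genes were found, in 10 windows. The E-box searched was CACGTG, which reads the same on both strands, and it lay in 4 of the 10 windows, against 7.15% of all 32851 windows of the table. The E-prime box CACGTT (both strands) lay in 1 window, against 4.68% of all, and the D-box TTATGNAA (both strands) in 1, against 3.38%. No match overlapped another. Each sequence runs 5′ to 3′ on the strand of its gene, in lower case with matches in capitals. In Dbp, at chr7:45704997-45705296 on the plus strand, there was no match to any of the 3 motifs in this window. In Tef both windows hold an E-box, 127 bases before the start site at chr15:81802423-81802722 and 138 bases before it at chr15:81811164-81811463, both on the plus strand. The Cry1 window, chr10:85185005-85185304 on the minus strand, has an E-prime box 79 bases and an E-box 60 bases before the start site. The upstream Per1 window, chr11:69098699-69098998 on the plus strand, has an E-box 166 bases and a D-box 24 bases before the start site. The other Per1 window, chr11:69099902-69100201 on the plus strand, holds no match, nor do the windows of Clock and Nfil3.
Dbp: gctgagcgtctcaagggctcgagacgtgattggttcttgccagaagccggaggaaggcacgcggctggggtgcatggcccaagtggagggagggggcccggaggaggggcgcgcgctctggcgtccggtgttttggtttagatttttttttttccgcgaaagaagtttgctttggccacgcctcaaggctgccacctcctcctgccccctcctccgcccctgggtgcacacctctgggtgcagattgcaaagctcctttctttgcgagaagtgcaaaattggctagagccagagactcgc
Tef, first start site: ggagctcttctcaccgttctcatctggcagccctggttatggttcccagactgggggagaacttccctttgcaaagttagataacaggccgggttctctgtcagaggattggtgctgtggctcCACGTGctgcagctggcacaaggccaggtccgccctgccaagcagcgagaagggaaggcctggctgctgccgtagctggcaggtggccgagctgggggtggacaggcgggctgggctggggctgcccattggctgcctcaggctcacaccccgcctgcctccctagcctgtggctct
Tef, second start site: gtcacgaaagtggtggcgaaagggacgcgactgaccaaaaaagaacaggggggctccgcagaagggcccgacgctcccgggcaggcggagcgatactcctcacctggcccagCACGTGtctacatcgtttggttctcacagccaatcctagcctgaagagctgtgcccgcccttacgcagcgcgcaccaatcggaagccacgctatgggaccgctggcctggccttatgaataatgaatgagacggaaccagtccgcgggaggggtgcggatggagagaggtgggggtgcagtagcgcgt
Cry1: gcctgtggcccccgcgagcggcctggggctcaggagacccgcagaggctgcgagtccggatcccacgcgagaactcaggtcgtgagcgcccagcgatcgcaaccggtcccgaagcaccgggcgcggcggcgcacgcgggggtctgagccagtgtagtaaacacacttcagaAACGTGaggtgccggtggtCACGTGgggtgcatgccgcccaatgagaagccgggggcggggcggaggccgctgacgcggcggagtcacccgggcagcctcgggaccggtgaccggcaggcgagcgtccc
Per1, upstream start site: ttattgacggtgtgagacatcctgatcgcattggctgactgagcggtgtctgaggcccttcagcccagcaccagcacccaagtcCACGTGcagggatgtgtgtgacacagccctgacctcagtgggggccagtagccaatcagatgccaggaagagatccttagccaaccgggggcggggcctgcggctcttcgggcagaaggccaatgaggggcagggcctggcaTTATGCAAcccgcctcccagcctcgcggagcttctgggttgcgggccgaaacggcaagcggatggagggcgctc
These matches are descriptions of letters. Binding was not measured in these arrays.

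Values are MAS5 signals, which have an arbitrary linear scale. A floor of 9.4, the 25th percentile over all arrays, replaced lower signals before log2 was taken, and means below are geometric means of the floored signals over 3 mice. A probe set was tested if its signal passed 22.8 in all 3 mice of at least 1 time point, and 9 of the 11 probe sets did. The other two, both of Cry1 (suffix _r_at), were under the floor on 51 and 53 of the 54 arrays, with highest signals of 10.4 and 11.2. Cry1 therefore rests on its _f_at probe set, a suffix that marks probes shared within a family of sequences. Nfil3 has a pair of tested probe sets, named below by their suffixes, _at and _f_at. Per2 passed through 1 time point only, virgin week 10, and Per1 through 2, pregnancy days 2 and 3, so a difference between those time points and others was part of being tested. Tests are two-sided limma tests on 1 fit of all 54 arrays, with Benjamini-Hochberg adjustment over 8640 probe sets, and a call is an adjusted p under 0.05. Since each mouse gave 1 array, the spread between arrays is that between mice and arrays together.

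Some measures of the whole series bear on these genes. Array medians lay between 31.9 and 44.6, and the 3′ to 5′ signal ratio of beta-actin, a sign of RNA quality, between 1.09 and 4.15. The same ratio of Gapdh ran from 0.85 to 23.12. It was 23.12, 20.1 and 2.43 at pregnancy day 1, 1.88, 9.83 and 10.01 at pregnancy day 2, and 0.92 to 1.67 in lactation. The Gapdh ratio was not a covariate in any fit. Luminal and secretory marker genes summed to 1302 to 1386 at virgin week 6 and to 27180 to 28782 at lactation day 7, and white adipocyte markers to 6730 to 7432 at virgin week 12 and 1035 to 1192 at lactation day 7, in the ranges over 3 mice. The luminal and secretory list includes the milk protein genes Csn2 and Wap. Of its 9 tested probe sets, 4 were called higher and 3 lower at lactation day 7 against virgin week 12. Their median difference was 0.52. In RNA of whole glands, fewer cells of a type and less RNA per cell cannot be told apart. The signal of Arl2bp took 2 separate ranges, 410.6 to 804 on 25 arrays and 63.2 to 108.8 on 29. All virgin mice and those of pregnancy days 1 to 3 were in the upper range, all mice of pregnancy days 12.5 and 14.5, lactation day 7 and involution days 1, 2, 4 and 20 in the lower, and the other 5 time points held both.

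Over the 18 time points 8 of the 9 tested probe sets changed, by the moderated F test, against 88.1% of all probe sets, so their share is near the background. Tef (adjusted p = 1.2e-11) and Dbp (5.1e-09) had the smallest p-values, followed by Bhlhe40 (1.5e-07), Nfil3 on the _at probe set (8.3e-07) and Cry1 (1.6e-06). Per2 (8.9e-05), Nfil3 on the _f_at probe set (0.00025) and Clock (0.008) also passed, though Per2 did not with a floor of 22.8 (0.066). Per1 did not (adjusted p = 0.088), though without the virgin week 10 mouse C it did (0.0081). Per1 and Per2 entered the test only through time points where their means were highest. Their F tests, with or without a call, therefore lend no support to a change.

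**Figure D1:**
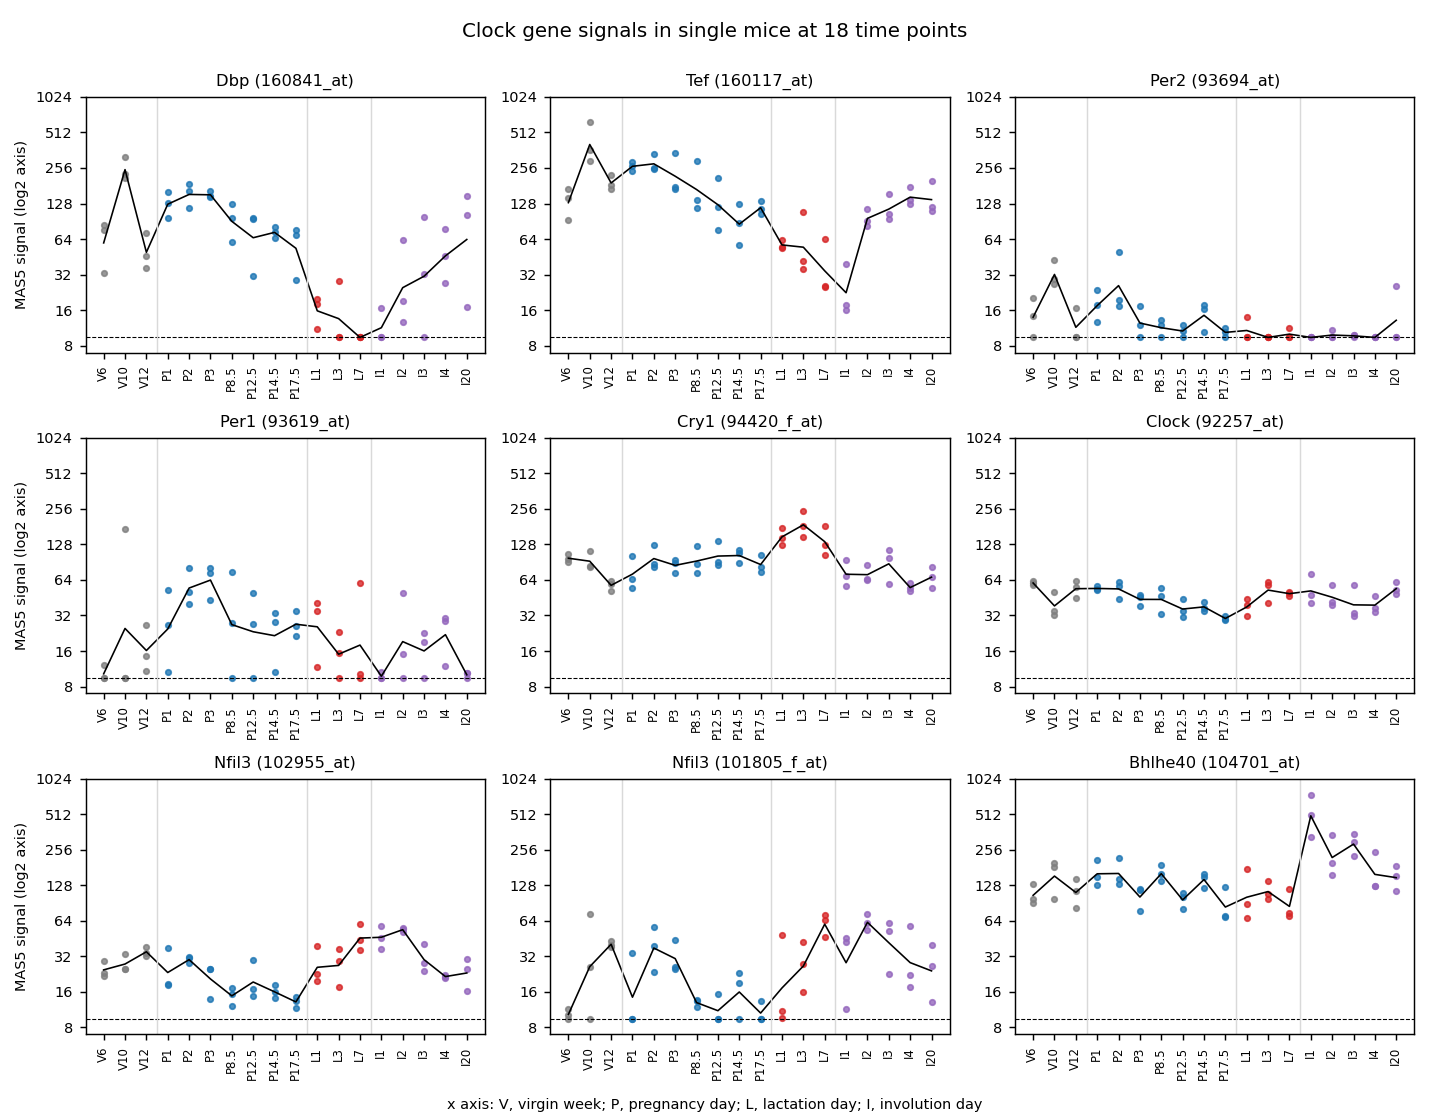
MAS5 signal (log2 axis) of the 9 tested probe sets at the 18 time points, with 1 point per mouse (signals under 9.4 drawn at 9.4), a line through the geometric means and a dashed line at the floor of 9.4. Dbp and Tef are highest at virgin week 10 and low from lactation day 1 to involution day 1, Cry1 is highest in lactation, and Bhlhe40 peaks at involution day 1 with 325.7 to 739.6.

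Clock (chr5:76209868-76305603, GRCm38.p6 as in RefSeq, here and for the genes below), the DNA-binding activator of the loop, had the narrowest range of the 9 probe sets. Its signal stayed between 29.2 and 71.5 on all 54 arrays, with the highest mean at virgin week 6 (60.3) and the lowest at pregnancy day 17.5 (30.2), a 2.00-fold range. At virgin week 6 the 3 mice read 60.4, 57.5 and 63.1, and at pregnancy day 17.5 they read 29.7, 29.2 and 31.7. These time points were picked as the highest and lowest means, so the gap between their mice adds no support. Through pregnancy the mean went from 54.2 on day 1 to 43.8 on day 3, 37.8 on day 14.5 and 30.2 on day 17.5, and at lactation day 3 it was 52.5. None of its 17 steps between neighbouring time points and none of the 8 comparisons below was called.

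Per1 (chr11:69095108-69109965) and Per2 (chr1:91415977-91459351), the Period repressors, were dim and variable. Per1 had its highest means at pregnancy day 3 (63.8) and day 2 (54.6), where the 6 mice read from 40 to 81.0, and its lowest at involution day 1 (9.78), where 2 of the 3 mice were under the floor. Single mice stood far from their group: at virgin week 10 Per1 read 6.2, 8.1 and 173.5, at pregnancy day 8.5 it read 7.6, 74.2 and 27.5, and at lactation day 7 it read 60.4, 7.9 and 10.2. The virgin week 10 mouse with 173.5 was also the highest of its group in Dbp, Tef and both Nfil3 probe sets. It had the lowest beta-actin ratio of the series (1.09, against 3.92 and 3.27 in the other two mice). With the log2 of that ratio as a covariate, the change of Per1 over the 18 time points was called (moderated F adjusted p = 0.0082, from 0.088), as it was with array quality weights (0.0024). Per1 was tested only because of pregnancy days 2 and 3, its highest means, so these calls lend no support to a change.
Per2 was highest at virgin week 10, with 26.4, 42.9 and 29.2, and at pregnancy day 2, with 50.1, 19.6 and 17.5. From lactation day 1 to involution day 4 it passed the floor in 5 of 21 mice, with no signal above 14.1, so no order can be read among those 7 time points.

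Cry1 (chr10:85131700-85185054), the Cryptochrome repressor that holds CLOCK and BMAL1 back, was highest in lactation. Its mean was highest at lactation day 3 (187.5, from mice of 183.4, 245.1 and 146.7), then lactation day 1 (148.2) and day 7 (135.0). All other time points had means between 55.1 at involution day 4 and 103.0 at pregnancy day 14.5. The 9 lactating mice read from 104.6 to 245.1, and single mice of other groups, such as 135.7 at pregnancy day 12.5 and 127.3 at pregnancy day 2, overlapped that range.

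Bhlhe40 (chr6:108660629-108666925), the E-box repressor, was highest in early involution. Its mean was highest at involution day 1 (495.8), then day 3 (285.5) and day 2 (219.7), and lay between 83.7 and 161.0 at the other 15 time points. At involution day 1 the mice read 739.6, 325.7 and 506.0, at day 2 156.7, 198.0 and 341.6, and at day 3 224.5, 298.8 and 346.9. The step from day 1 to day 2 was a fall (by 1.17 log2 units, SE 0.33, adjusted p = 0.023, against 7.64% of all probe sets called), although the highest mouse of day 2 overlapped the lowest of day 1. It lost the call without any 1 of 4 of the 6 mice (adjusted p up to 0.16).

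Dbp (chr7:45705100-45710203) and Tef (chr15:81802673-81826863), the D-box activators, had the widest ranges and ran in parallel. Dbp was at 211.3, 226.6 and 318.2 in the mice of virgin week 10, between 96.7 and 187.1 in the 9 mice of pregnancy days 1 to 3, and at 64.9, 74.1 and 80.6 at pregnancy day 14.5. In lactation it read 11.1, 17.9 and 19.8 on day 1, 5.5, 2.3 and 28.2 on day 3, and 3.7, 3.9 and 2.6 on day 7, where all 3 mice were under the floor. The peak mean of 247.9 was thus at least 26.4-fold above that of lactation day 7, with the floor standing for the lower value. After pup removal Dbp was at 16.6, 3.3 and 9.2 on day 1, 27.0, 46.3 and 78.4 on day 4, and 148.4, 16.9 and 102.0 on day 20, where the mice lay far apart. Tef went from 363.1, 290.9 and 627.5 at virgin week 10 to 25.1, 25.4 and 64 at lactation day 7 and 17.7, 16.2 and 39.5 at involution day 1, an 18.0-fold range of means. Across the 18 means the 2 genes had a Pearson r of 0.93, given as a description, since neighbouring time points share arrays' stage and cell makeup.

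Nfil3 (chr13:52967209-52982878), the D-box repressor, had its highest mean at involution day 2 on both probe sets. On the _at probe set the highest mean was at involution day 2 (53.8, from 55.4, 54.4 and 51.7), then involution day 1 (46.4) and lactation day 7 (45.7), and the lowest at pregnancy day 17.5 (13.2, from 14.5, 13.4 and 11.7). The _f_at probe set had its highest means at the same involution day 2 (62.1) and at lactation day 7 (59.9), but its lowest at virgin week 6 (10.3). At involution day 1 the probe sets parted, with a mean of 28.25 on the _f_at probe set. Against lactation day 7 it differed by -1.09 (SE 0.59, limma adjusted p = 0.18), which was not called. The _at probe set gave 0.02 (SE 0.31, 0.98). The means of Nfil3 on the _at probe set and those of Dbp had an r of -0.51 over the 18 time points.

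With the time points ranked by mean, the mice of neighbouring ranks mostly overlapped. Of 17 neighbouring ranks, all mice of the higher group lay above the lower in 1 for Per1, Dbp and Clock. For the other 6 probe sets it was 0. Ranking by the same values puts the closest means side by side, so this overlap does not describe these genes in particular. The share over all probe sets is not given here. The SD of log2 signal between mice, pooled over time points, was 1.03 for Per1 and 0.81 for Dbp, at percentiles 99.6 and 98.2 of all tested probe sets, whose median was 0.37. Nfil3 was at 0.76 on the _f_at probe set and 0.36 on the _at probe set, Tef at 0.51, Bhlhe40 at 0.43, Per2 at 0.40 and Cry1 at 0.31. Clock, at 0.26, stood at percentile 19.6. For Dbp, Per1 and Per2 the floor narrows the spread wherever mice are under it. In Dbp the SD was 1.69 at involution day 3, where the mice read 6.0, 97.5 and 32.5.

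Steps between neighbouring time points were tested for all 9 probe sets. Of 153 tests of the 9 probe sets over 17 steps, 12 were called (7.84%), against 6.00% of all tests of the array, and they lay in 5 steps. Of the 12, 2 are those of Per2 into and out of virgin week 10, the time point through which it entered the test, so they support nothing here. From virgin week 6 to week 10, where 6.23% of all probe sets were called, Dbp rose by 2.06 log2 units (SE 0.62, 4.18-fold, adjusted p = 0.037), Tef by 1.64 (SE 0.40, 3.11-fold, 0.0085) and Per2 by 1.2 (SE 0.34, 2.30-fold, 0.028). From week 10 to week 12 0.312% were called, and Per2 was among them, having fallen by 1.49 (SE 0.34, adjusted p = 0.037). Dbp went from 211.3, 226.6 and 318.2 to 45.9, 71.6 and 36.7 in that step, a difference of -2.33 (SE 0.62, adjusted p = 0.08). Tef differed by -1.08 (0.16), and neither was called. The rise of Dbp was not called with no floor (adjusted p = 0.084), no filter (0.065), the beta-actin covariate (0.061) or the Arl2bp and Glo1 covariates (0.21). That of Per2 was not called with no floor (0.29) or the latter covariates (0.069), and its fall was -0.49 (0.085) with a floor of 22.8, -1.86 (0.18) with no floor and -1.62 (0.16) with those covariates. The calls of week 10 also lean on single mice: without week 6 mouse C none of the 3 rises was called (adjusted p 0.067 for Tef, 0.18 for Per2 and 0.19 for Dbp), nor were they without week 10 mouse C (0.099, 0.065 and 0.17). That of Dbp was also lost without mouse A of either week (0.079 and 0.054), and that of Per2 without mouse B of either week (0.052 and 0.084). The fall of Per2 to week 12 was lost without any 1 of 5 of the 6 mice, all but week 10 mouse C (adjusted p up to 0.33).

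Virgin week 12 was set against virgin week 6 to compare the adult with the pubertal gland. Of the 9 probe sets 2 were called, against 29.8% of all probe sets, and the median difference of the 9 was 0.08, beside 0.17 over all. Cry1 fell from 91.4, 96.2 and 106.1 to 58.7, 51.9 and 62.7, by 0.76 log2 units (SE 0.26, 1.7-fold, adjusted p = 0.023). Nfil3 on the _f_at probe set rose from 11.5, 7.8 and 10.1 to 43.0, 40.2 and 38.4, by 1.98 (SE 0.59, 3.93-fold with the week 6 mouse of 7.8 at the floor, 0.011). With a floor of 22.8 it was 0.83 and not called (0.08). The _at probe set gave 0.51 (SE 0.31, 0.21) at the floor used throughout. The beta-actin ratio was 3.75 ± 0.363 (SD, n = 3) at week 6 and 1.99 ± 0.487 at week 12, and with its log2 as a covariate neither was called (Cry1 -0.60, adjusted p = 0.22, Nfil3 1.36, 0.21). With that covariate 349 of all 8640 probe sets were called, from 2571 without it. Arrays scaled to a common median moved the median of all probe sets from 0.17 to -0.03, and both calls held there. The call of Cry1 was lost without week 6 mouse C (adjusted p = 0.076) or week 12 mouse A (0.052) or B (0.082). Fibroblast markers were lower in 6 of 7 probe sets at week 12 and luminal and secretory markers higher in 6 of 9, with sums of 1302 to 1386 and 2415 to 4129, and their part was not tested.

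Pregnancy day 1 against virgin week 12 compares the first day after mating with the unmated adult. None of the 9 was called, where 0.104% of all were (9 of 8640). Dbp was at 96.7, 160.4 and 129.8 on day 1 and 45.9, 71.6 and 36.7 at week 12, a difference of 1.35 (SE 0.62, adjusted p = 0.42). Tef was at 241.8 to 288.2 against 169.9 to 223.3 (0.47, SE 0.40, 0.68). In limma 2 of the 9, Dbp and Nfil3 on the _f_at probe set (-1.49, SE 0.59, adjusted p = 0.35), had an unadjusted p under 0.05, and no alternative setting called any of the 9.

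Pregnancy day 14.5 against virgin week 12 compares the gland at mid-pregnancy with the adult virgin. Cry1 was higher, Tef and Nfil3 were lower, and the other genes were not called: 3 of 9, against 17.7% of all. Cry1 rose from the 51.9 to 62.7 of week 12 to 107.3, 114.4 and 89.1, by 0.84 (SE 0.26, 1.79-fold, adjusted p = 0.019). Tef fell from 184.3, 223.3 and 169.9 to 126.6, 56.8 and 87.2, by 1.16 (SE 0.40, 2.23-fold, 0.036). Nfil3 on the _at probe set fell from 34.4, 38.2 and 32.5 to 18.3, 14.1 and 15.9, by 1.13 (SE 0.31, 2.18-fold, 0.0082), and the _f_at probe set differed by -1.34 (0.11). Dbp, the partner of Tef, gave 0.56 (SE 0.62, 0.57), with 36.7 to 71.6 at week 12 and 64.9 to 80.6 at day 14.5. The groups differ wholly in the Arl2bp range, and with Arl2bp and Glo1 signals as covariates none of the 3 was called, at 0.82 for Cry1 (adjusted p = 0.34), -0.97 for Nfil3 (0.34) and -0.63 for Tef (0.7). With those covariates 261 of all 8640 probe sets were called, from 1527 without them. Cry1 was not called without week 12 mouse B (0.078) or day 14.5 mouse A (0.059) or B (0.083), and Tef without any 1 of 5 of the 6 mice, all but day 14.5 mouse A (up to 0.21). White adipocyte markers summed to 4075 to 4980 at day 14.5, with 3 of 6 probe sets lower, and their part in the fall of Tef was not tested.

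Lactation day 1 against pregnancy day 17.5 spans birth. Here 4 of 9 probe sets were called, against 23.3% of all: Dbp and Tef fell, Cry1 and Nfil3 rose. Dbp fell from 28.7, 69.8 and 76.3 to 11.1, 17.9 and 19.8, by 1.76 (SE 0.62, 3.39-fold, adjusted p = 0.035), and Tef from 105.0, 135.0 and 115.5 to 54.1, 54.9 and 62.6, by 1.05 (SE 0.40, 2.07-fold, 0.049). In both genes every lactating mouse lay below every pregnant one, which adds no support to calls made on the same values. Cry1 rose from 74.8, 82.8 and 104.1 to 145.0, 177.4 and 126.6, by 0.78 (SE 0.26, 1.72-fold, 0.024). Nfil3 on the _at probe set rose from 14.5, 13.4 and 11.7 to 22.6, 38.9 and 19.6, by 0.97 (SE 0.31, 1.96-fold, 0.018), but with a floor of 22.8 it was 0.26 (0.39) and with array weights 0.84 (0.081). The _f_at probe set gave 0.71 (0.41). Lactation day 1 mouse B, the highest in Cry1 and in Nfil3 on the _at probe set, was in the upper Arl2bp range and pregnancy day 17.5 mouse B in the lower, opposite to the rest of their groups. White adipocyte markers, at 3671 to 5102 and 1533 to 2503, were lower in 5 of 6 probe sets and fibroblast markers in 5 of 7, and their part in the falls of Dbp and Tef was not tested. Without these mice B and the 3 like mice of other time points none of the 4 was called (adjusted p from 0.13 to 0.24), at differences of -1.66 for Dbp, -0.92 for Tef, 0.62 for Cry1 and 0.69 for Nfil3. In that fit 745 of all 8640 probe sets were called, from 2011 with all mice. Leaving out single mice, Tef was called in none of 6 fits, Dbp only without pregnancy day 17.5 mouse A or lactation day 1 mouse C, Cry1 not without pregnancy day 17.5 mouse A (adjusted p = 0.082) or B (0.071) or lactation day 1 mouse B (0.13), and Nfil3 not without pregnancy day 17.5 mouse C (0.07) or lactation day 1 mouse B (0.18).

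Lactation day 7 against virgin week 12 compares full milk secretion with the adult virgin. Dbp and Tef were lower and Cry1 was higher, 3 of 9 against 51.6% of all, a share below the background. Dbp went from 45.9, 71.6 and 36.7 to under the floor in all 3 mice, at least 5.26-fold lower (difference -2.39, SE 0.62, adjusted p = 0.0014), and not called with a floor of 22.8 (-1.12, 0.059). Tef fell from 184.3, 223.3 and 169.9 to 25.1, 25.4 and 64, by 2.47 (SE 0.40, 5.55-fold, 1.5e-06). Cry1 rose from 58.7, 51.9 and 62.7 to 104.6, 127.6 and 184.3, by 1.23 (SE 0.26, 2.34-fold, 0.00011). No mouse of one group overlapped the other in these 3 genes, but they were picked by calls on the same values, so this adds no support. Clock (-0.14, SE 0.24), Bhlhe40 (-0.39, SE 0.33) and Nfil3 on the _at probe set (0.39, SE 0.31) did not pass. The groups differ wholly in the Arl2bp range, and with Arl2bp and Glo1 as covariates the 3 calls were lost (Tef -1.70, adjusted p = 0.13, Cry1 1.16, 0.11, Dbp -2.78, 0.11). With those covariates 1936 of all 8640 probe sets were called, from 4456 without them. White adipocyte markers were lower in 5 of 6 probe sets and fibroblast markers in 7 of 7, with a fibroblast sum of 11529 to 12687 at week 12 and 1653 to 2233 at lactation day 7. Their part in the falls of Dbp and Tef was not tested.

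Involution day 1 against lactation day 7 shows the gland 1 day after the pups were taken away. Bhlhe40 rose, Cry1 fell, and Dbp and Tef were low in both groups: 2 of 9 were called, against 25.4% of all. Bhlhe40 rose from 69.7, 73.9 and 118.1 to 739.6, 325.7 and 506.0, by 2.55 (SE 0.33, 5.85-fold, adjusted p = 9.2e-08). This call held in all 13 alternative settings (2.49 to 2.6) and without each of the 6 mice in turn (2.26 to 2.85). Cry1 fell from 104.6, 127.6 and 184.3 to 56.8, 93.6 and 68.7, by 0.92 (SE 0.26, 1.89-fold, 0.0064), and was not called without lactation day 7 mouse C (-0.69, adjusted p = 0.073) or involution day 1 mouse A (-0.75, 0.061). All 6 mice were in the lower Arl2bp range, so these values do not span its split. Macrophage markers summed to 1810 to 2097 at lactation day 7 and 7678 to 8859 at involution day 1, with 2 of 6 probe sets higher and 1 lower, fibroblast markers were higher in 4 of 7, and their part in the rise of Bhlhe40 was not tested.

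One day later Tef was higher again. From involution day 1 to day 2 it rose from 17.7, 16.2 and 39.5 to 83.3, 91.8 and 114.9, by 2.09 (SE 0.40, 4.27-fold, adjusted p = 0.00053), and the call held without each of the 6 mice in turn (1.86 to 2.5). Dbp went from 16.6, 3.3 and 9.2 to 12.8, 19.0 and 62.7 in the same step, a difference of 1.13 (SE 0.62, 0.31) with overlapping mice. White adipocyte markers summed to 1126 to 1399 at involution day 1 and 2336 to 3130 at day 2, whose part in the rise of Tef was not tested.

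Involution day 4 against lactation day 7 had the most calls among the 9, 5 against 44.4% of all. The D-box activators rose and the Cryptochrome and D-box repressors fell. Tef rose from 25.1, 25.4 and 64 to 126.0, 138.1 and 175.0, by 2.07 (SE 0.40, 4.21-fold, adjusted p = 3.7e-05), and Dbp from under the floor to 27.0, 46.3 and 78.4, at least 4.91-fold (difference 2.29, SE 0.62, 0.0026). Bhlhe40 was still higher, at 126.7, 127.2 and 245.9, by 0.90 (SE 0.33, 1.87-fold, 0.025). Cry1 fell to 60.2, 54.2 and 51.3, by 1.29 (SE 0.26, 2.45-fold, 6.9e-05), and Nfil3 on the _at probe set from 36.0, 59.7 and 44.3 to 20.8, 22.4 and 21.5, by 1.08 (SE 0.31, 2.12-fold, 0.0038), with the _f_at probe set at the same -1.08 but not called (SE 0.59, 0.13). The mice did not overlap in the 5 called probe sets, but these were picked by calls on the same values, so this adds no support. All 6 mice were in the lower Arl2bp range. The call of Bhlhe40 was lost without lactation day 7 mouse A or B or involution day 4 mouse C (adjusted p 0.1, 0.086 and 0.2), and that of Dbp with a floor of 22.8 (1.02, 0.096). White adipocyte markers summed to 4091 to 5132 at day 4 (4 of 6 probe sets higher) and fibroblast markers were higher in 7 of 7, and macrophage markers in 5 of 6, and their part in these rises was not tested.

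Involution day 20 against virgin week 12 sets the regressed gland beside the adult virgin one. None of the 9 was called, where 2.64% of all were, and 0 of the 9 had an unadjusted p under 0.05 in limma, nor did any alternative setting call one. The differences ran from -0.75 (Nfil3 on the _f_at probe set, SE 0.59) to 0.42 (Bhlhe40, SE 0.33), with Clock at 0.00 (SE 0.24), Cry1 at 0.23 (SE 0.26), Dbp at 0.36 (SE 0.62) and Tef at -0.47 (SE 0.40). A miss of the threshold at these SEs does not show that levels are equal. Virgin week 12 is in 5 of the 8 comparisons and lactation day 7 is in 3, so their values are not independent of each other. The median difference of the 9 tested probe sets was 0.47 at pregnancy day 1 beside -0.04 over all probe sets, 0.34 beside -0.09 at pregnancy day 14.5 and 0.28 beside 0.00 at lactation day 1. It was -0.14 beside -0.01 at lactation day 7, -0.09 beside -0.02 at involution day 1, -0.09 beside -0.03 at involution day 4 and 0.00 beside -0.07 at involution day 20.

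**Figure D2:**
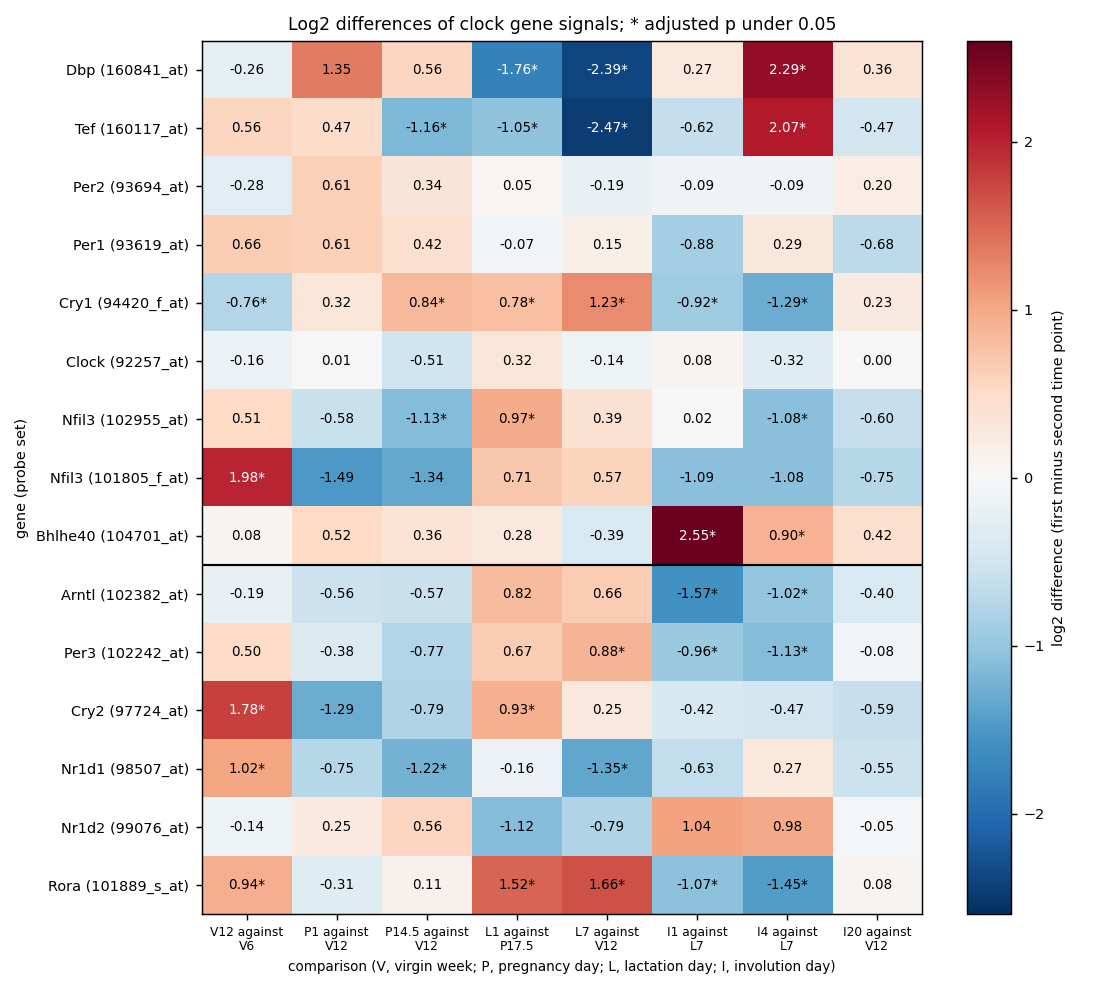
Log2 difference (first minus second time point) in the 8 comparisons for the 9 tested probe sets (above the line) and 6 further clock loop genes (below), with 3 mice per time point, colour from blue (lower) to red (higher), and a star at an adjusted p under 0.05. Dbp and Tef carry stars of the same sign at lactation day 1, lactation day 7 and involution day 4, where Cry1 carries a star of the opposite sign.

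The other parts of the loop were read from a list of 20 genes, of which 16 probe sets of 11 genes were tested. Against the first comparison's 29.8%, 6 of the 16 were called at virgin week 12, all higher than at week 6, with Cry2 (1.78, adjusted p = 0.00039), the second Cryptochrome, as the largest. At lactation day 7, 3 were higher and 4 lower than at virgin week 12, against 51.6% of all called. Rora, the nuclear receptor that activates Arntl, rose from 42.6, 50.9 and 48.8 to 182.8, 129.2 and 140.7 (1.66, adjusted p = 8e-06), and Per3, the third Period gene, rose by 0.88 (0.015). Nr1d1, which encodes the repressor REV-ERB alpha, fell from 374.3, 301.9 and 267.4 to 152.9, 114.4 and 105.2 (by 1.35, 0.00095), and Btrc, a ubiquitin ligase subunit that marks Period proteins for breakdown, fell by 2.37 (3.2e-06). At involution day 1, 2 were higher and 3 lower than at lactation day 7, against 25.4% of all. Arntl, the partner of Clock, fell from 114.9, 78.7 and 72.0 to 21.5, 44.7 and 26.1 (by 1.57, 0.00098), Rora by 1.07 (0.0051) and Per3 by 0.96 (0.016).

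At birth 2 of the 16 were higher and 1 lower, against 23.3% of all, led by Rora, which rose from 85.7, 49.2 and 38.0 to 118.0, 158.8 and 203.8 (1.52, adjusted p = 0.00016). At involution day 4, 2 were higher and 4 lower than at lactation day 7, against 44.4% of all, with Rora (-1.45, 8.1e-05), Per3 (-1.13, 0.0026) and Arntl (-1.02, 0.02) among the latter. At pregnancy day 14.5 Nr1d1 alone was called, lower by 1.22 (0.0097), against 17.7% of all, and at pregnancy day 1 and involution day 20 none was. Nr1d2, the partner of Nr1d1, was called in none of the 8, with mice far apart in lactation: 27.1, 15.4 and 181.8 on day 3. The mouse with 181.8, lactation day 3 mouse C, also had the highest Dbp (28.2 against 5.5 and 2.3) and Tef (108.5 against 41.7 and 36.0) of its group, and it was the 1 mouse of that day in the upper Arl2bp range.

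At virgin week 10, where Dbp, Tef and Per2 were highest, 3 other loop genes of 11 tested (16 probe sets) were called against week 6. In that step 6.23% of all probe sets were called. The time point was taken up because these members were highest there, and the alternative settings were read for the members only. Arntl was at 22.2, 19.2 and 25.6, below every mouse of week 6 (65.1, 68.6 and 54), a fall of 1.49 (SE 0.36, adjusted p = 0.0089), and at week 12 it was at 63.9, 40.7 and 63.1 (1.30, 0.08). Cry2 (1.69, 0.0017) and Rora (1.13, 0.014) rose from week 6 to week 10. Nr1d2 was at 213.4, 225.6 and 166.5 at week 10, with differences not called from week 6 (1.04, adjusted p = 0.23) or to week 12 (-1.18, 0.25). Over all 17 steps, 14 of 272 tests of the list were called (5.15%), near the 6.00% of all tests. Over the 18 means Dbp had an r of -0.66 with Arntl, -0.80 with Rora and 0.75 with Nr1d2, again as descriptions.

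**Figure D3:**
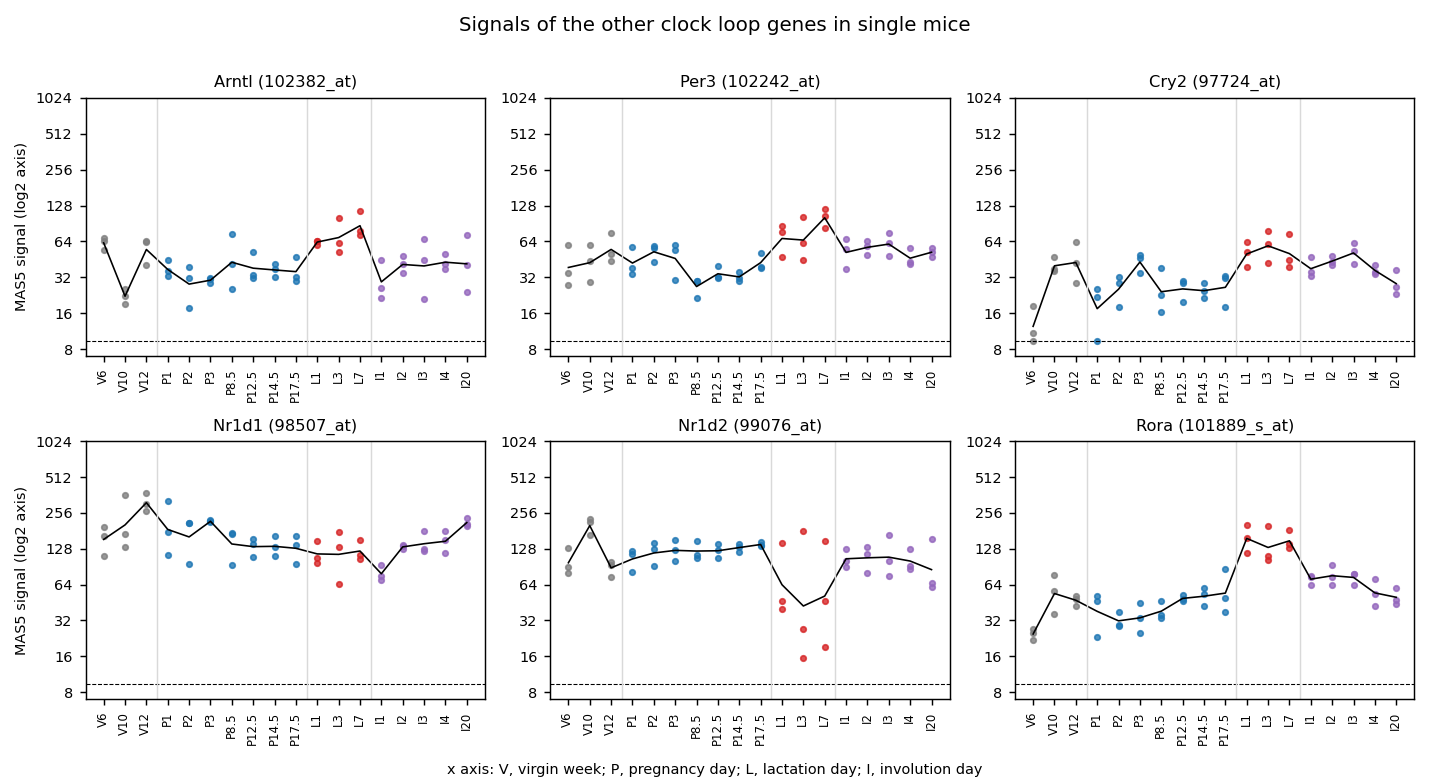
MAS5 signal (log2 axis) of Arntl, Per3, Cry2, Nr1d1, Nr1d2 and Rora at the 18 time points, with 1 point per mouse, a line through the geometric means and a dashed line at the floor of 9.4. Arntl is lowest at virgin week 10 and highest at lactation day 7, Rora is highest in lactation, and the Nr1d2 mice of lactation day 3 lie between 15.4 and 181.8.

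Genes known as outputs of the clock in other organs were given by a list of 14, with 12 probe sets of 9 genes tested. At lactation day 7 all 12 were called, 4 higher and 8 lower than at virgin week 12, with a median of -2.07 beside -0.01 over all probe sets and 51.6% of all called. Nampt, the enzyme that makes NAD from nicotinamide, rose by 1.99 (adjusted p = 4.9e-08) and Wee1, a cell cycle kinase, by 1.71 (0.00032). Alas1, the first enzyme of haem synthesis, fell by 1.75 (3.2e-08) and Pparg, the fat cell regulator, differed by -3.21 (2.8e-13). Pparg and Ces1d are also genes of fat cells, whose markers fell in the same comparison. Of the glucocorticoid responsive list 4 of 12 probe sets were called at lactation day 7, where 51.6% of all were called in either direction. Of the 4, 3 were lower and 1 higher, and the median of the 12 was -0.82. The higher one was Fkbp5, a glucocorticoid-induced co-chaperone, by 1.80 (2.2e-05). At birth 5 of 12 fell, Fkbp5 by 1.10 (0.015), where 23.3% of all were called. Of the cAMP and serum response list 7 of 10 were called at involution day 4, 6 of them higher, among them Fos (2.10, 0.0011), against 44.4% of all.

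Within a time point, mice of 1 stage still differed in these genes, and the deviations of each mouse from its time point mean were compared between genes, for 28 pairs over 54 mice. By a permutation test within time points 3 pairs passed after adjustment over the 28. Mice with more Dbp had more Tef (Pearson r = 0.47, adjusted p = 0.013, Spearman rho = 0.51, adjusted p = 0.015, permutation tests) and less Clock (r = -0.54, 0.023, rho = -0.53, 0.015, permutation tests). Mice with more Per2 had more Cry1 (r = 0.41, 0.041), which did not pass by rank (rho = 0.37, 0.12, permutation tests). Dbp with Clock did not pass with median scaling (-0.46, adjusted permutation p = 0.059), nor Per2 with Cry1 with quantile normalization (0.43, 0.066) or a floor of 22.8 (0.35, 0.11). Dbp and Nfil3 had an r of -0.43 that did not pass (adjusted p = 0.07, permutation test). Without the 2 mice farthest from the median in Dbp, r was 0.50 with Tef and -0.42 with Clock (unadjusted permutation p = 0.00082 and 0.016), and that of Per2 with Cry1 was 0.27 (0.057) without the 2 farthest in Per2. After adjustment over the 28 pairs, Dbp with Tef alone passed there (Dbp with Clock 0.22, Per2 with Cry1 0.27, permutation tests). Without the 5 mice apart in Arl2bp, Dbp with Clock alone passed, and Dbp with Tef gave r = 0.38 (adjusted permutation p = 0.11). By Arl2bp range, with the 5 mice apart left out, Dbp and Tef had 0.49 over the 22 mice of the upper range and 0.35 over the 27 of the lower, Dbp and Clock -0.32 and -0.59, and Per2 and Cry1 0.53 and 0.26. Mice under the floor in Dbp or Per2 share a deviation, and mice of a time point share their stage.

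**Figure D4:**
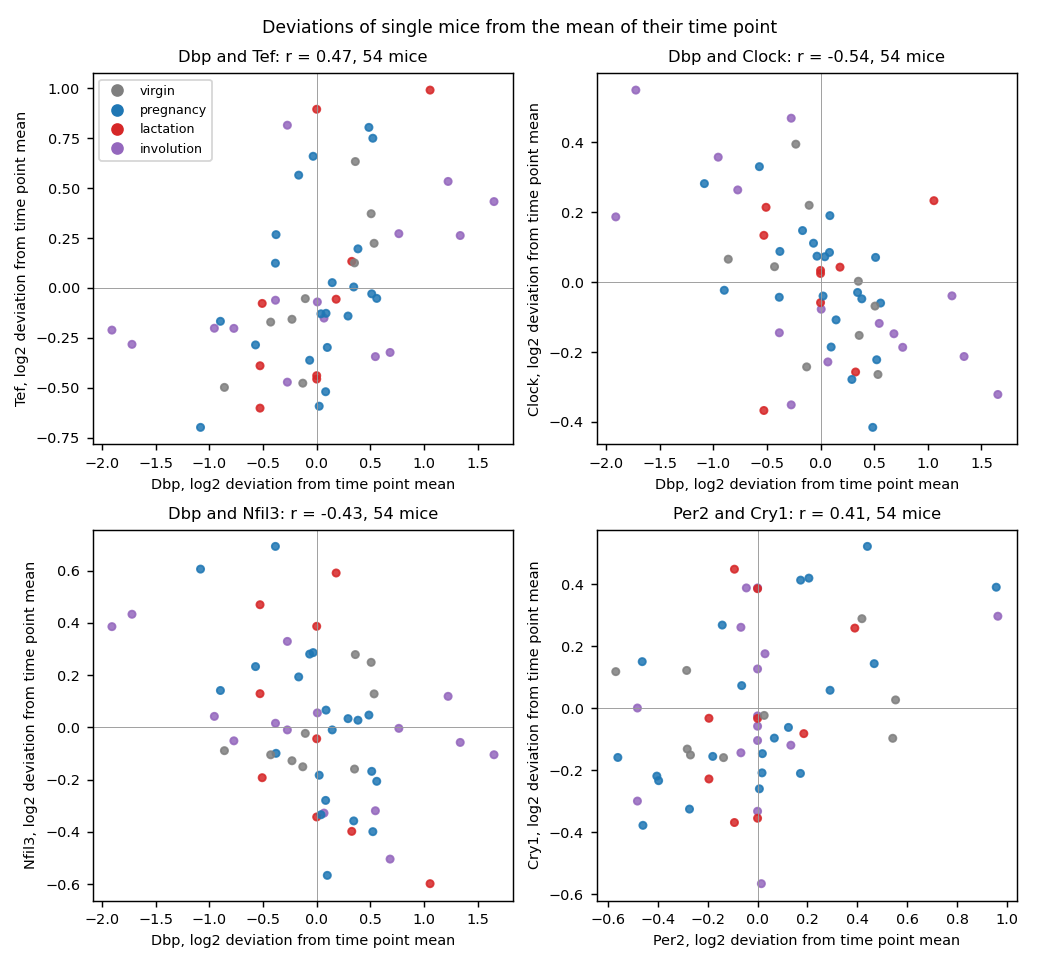
Deviation of each of the 54 mice from the mean of its time point, in log2 signal, for 4 pairs of genes, coloured by stage. Dbp and Tef rise together (r = 0.47), Dbp and Clock run opposite (r = -0.54), Dbp and Nfil3 give -0.43 and Per2 and Cry1 0.41, and points at 0 on the Per2 axis are groups wholly under the floor.

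The genes whose 18 means were most like those of each clock gene were taken by Pearson r among all tested probe sets with 1 symbol. For Dbp they were S100a4 (0.93), Ccdc80 (0.93) and 1190005I06Rik (0.92), and for Tef Cidec (0.95), Slc1a5 (0.94) and Plin4 (0.93), of which Cidec and Plin4 encode lipid droplet proteins of fat cells. Cry1 was nearest to Hopx (0.88), Edem3 (0.88) and Chordc1 (0.87), and Bhlhe40 to Sqstm1 (0.89), Zfand2a (0.88) and Cyp24a1 (0.85). The best r was lower for Nfil3 (Znrf2, 0.83), Per2 (Pdcd7, 0.82), Per1 (Gtf2i, 0.80) and Clock (Agtrap, 0.76). These likenesses cover 18 means that share stage and cell makeup.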

How the data were processed

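RNA of 54 mammary glands was hybridised to Affymetrix arrays, with 3 mice at each of 18 time points. The deposited values are signal intensities on a linear scale, computed by the authors with MAS5, per the submitters' processing notes (version and scaling target are not given in the sources used here). Signals under 9.4 (25th percentile) were set to 9.4 and taken to log2. Without 66 controls, 8640 of 12422 probe sets with a signal over 22.8 (40th percentile) in all 3 mice of a time point were tested. Genes were named from GEO's platform annotation, and probe sets were not merged. One limma fit (3.58.1, R 4.3.3, intensity trend) had a mean per time point and 36 residual degrees of freedom, with Benjamini-Hochberg adjustment. Pair tests used 1e+05 permutations within time points (Python 3.11.15, numpy 2.4.6, scipy 1.17.1). Scripts were tested on simulated data.

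All probe sets of the 8 genes were named; of the other clock and output lists any tested probe set could be, called ones first; of other lists up to 4 genes; and the 3 likest genes by r. The members and lists were chosen with earlier results of these data known. Alternatives were other floors, scalings, filters and weights, covariates, a replicate block, and each mouse left out. Depth does not apply to arrays, whose number limits precision. Labels do not pair the mice: same-letter deviations had r from -0.09 to 0.09.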

Additional observations from a re-analysis of the deposited data

How the results depend on the processing

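No result of the 8 members reversed direction under any alternative. The change over 18 time points (7 to 9 probe sets), involution day 4 (4 to 6), pregnancy day 1 (0) and involution day 20 (0) kept counts within 1.5 times the reported ones. For virgin week 12 against week 6 the count of 2 became 1 with a floor of 22.8, 1 with 1 probe set per gene (which drops the Nfil3 _f_at probe set), 0 with the beta-actin covariate and 1 to 2 without single mice. Over all probe sets 2571 calls became 2596 with that floor, 2278 (of 7311) with 1 probe set per gene and 349 with the covariate. For pregnancy day 14.5 the count of 3 became 5 with array weights, 0 with Arl2bp and Glo1 as covariates and 1 to 2 without single mice. Over all probe sets 1527 calls became 3103 with those weights and 261 with those covariates. For lactation day 1 the count of 4 became 2 with no floor, 2 with a floor of 22.8, 2 with no filter, 1 with array weights, 1 with only the 6 arrays compared, 0 without the mice apart in Arl2bp and 0 to 3 without single mice (0 without lactation day 1 mouse B). Over all probe sets 2011 calls became 1949 with no floor, 2105 with a floor of 22.8 and 2026 (of 12422) with no filter. They became 1474 with array weights, 620 with only the 6 arrays and 745 without the mice apart in Arl2bp. For lactation day 7 the count of 3 became 0 with Arl2bp and Glo1 as covariates, where 4456 calls over all probe sets became 1936. For involution day 1 the count of 2 became 1 with only the 6 arrays compared and 1 to 2 without single mice. Over all probe sets 2193 calls became 1683 with only those 6 arrays. The 12 step calls became 7 with no floor and 8 to 13 without single mice. The 3 pairs became 1 without the 2 mice farthest from the median and 1 without the mice apart in Arl2bp. Leaving out those mice was chosen after seeing the data, and the causes of these changes were not tested.

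With the mouse letter as a replicate block, 8 probe sets changed over time and 11 steps were called. The counts were 2 for virgin week 12 and involution day 1, 3 for pregnancy day 14.5, lactation day 1 and lactation day 7, and 5 for involution day 4. Tef at lactation day 1 lost its call under the block (-1.05, adjusted p = 0.05), and the letters do not pair the mice. Scaling arrays to a common median moved the median of all probe sets at pregnancy day 14.5 from -0.09 to 0.09 and the share of calls that were higher from 49.9% to 71.9%. For virgin week 12 that share went from 57.9% to 34.0%, and for involution day 20 from 48.3% to 65.7%. Signals of Per1, Per2 and Dbp near the floor limit what can be read in late stages.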
